A study of Papaver somniferum with 12 samples.

Results

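Opium poppy (*Papaver somniferum*) leaves held a group of 100 unigenes whose RNA was most abundant in jointing leaves. Their RNA was lower in the 3 other growth phases examined, whose means were kept within a set limit of each other by the choice of unigenes. A unigene is a non-redundant transcript sequence assembled from long reads and then quantified with short reads. The 100 members were taken from 61856 unigenes by a rule that used the measured values of all 12 libraries. Deposited RPKM, read numbers relative to unigene length and to the reads mapped in that library, were first divided by a size factor for each library (median of ratios), and these scaled values were expressed as log2(scaled RPKM + 1). A unigene passed when its deposited mean over the 12 libraries lay between 5 and 1000 RPKM, its lowest jointing library was above the highest of the other 9, and the means of the other 3 phases lay within 0.5 of each other. The 100 with the largest jointing excess, the jointing mean minus the highest other phase mean on this log2 scale, were kept. With values as deposited in place of scaled ones, the same rule shared 43 of its 100 unigenes with these members. The members were thus selected on their high values in jointing leaves, and this peak is described here without a test.

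All libraries came from leaves of the original cultivar B1, grown in an experimental plot, with 3 separate samples from each phase. No treatment or genetic change separated the groups, and since each phase was collected at its own time of the season, growth phase and season cannot be told apart. The phases were seedling, jointing, when the stem had elongated, bolting, when a small bud was first seen at the stem tip, and florescence, the first bloom. The labels do not say how many plants were in a sample.

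Jointing is the stage at which the internodes of the stem lengthen, and the leaves present then belong to a plant that has left the rosette and has not yet formed a bud. Opium poppy is grown for its benzylisoquinoline alkaloids, among them morphine and codeine, which are stored in the latex of specialised cells of the vasculature. Leaf RNA is a mixture of all cell types of the blade and its veins, so fewer cells of a type and less RNA per cell cannot be told apart. The table gives identifiers only, and 0 of the 61856 occurred in the gene table of assembly ASM357369v1, so the functions of the members, their positions and leaf marker genes were not analysed here. For the same reason no pathway list was counted.

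Summed RPKM per library lay between 998634 and 1175897, and the size factors between 0.830 and 1.28. The lowest factor was that of seedling replicate 2 and the highest that of jointing replicate 3. The number of reads behind a value is unknown. The study's quality table lists better RNA integrity for the jointing libraries than for those of the other phases, and the best for the third jointing library. The part of RNA integrity in the results was not tested.

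The steps of the rule narrowed the table quickly. Of 14941 unigenes in the mean range, 650 (4.35%) had all 3 jointing libraries above the other 9, and 347 of these also had the other phases within 0.5. The rule turned to each of the other phases, as a description, left 728 unigenes for seedling, 243 for bolting and 1231 for florescence. An excess of at least 1 was reached by 33 unigenes for seedling, 11 for jointing, 0 for bolting and 49 for florescence. Among the first 100 of each list the median excess was 0.81 for seedling, 0.62 for jointing, 0.39 for bolting and 1.0 for florescence. The jointing peak was thus of modest height, between those of bolting and seedling.

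Within the 100 members the excess ran from 0.48 to 1.25. In scaled RPKM the jointing mean was 1.41 to 2.57 times the highest other phase mean, with a median of 1.60. Most members were of moderate abundance, with jointing means between 7.16 and 1175 scaled RPKM and a median of 25.6. The median member had 12.8 scaled RPKM in seedling leaves, 14.2 in bolting leaves and 11.9 in florescence leaves. Of the 100, 11 had a jointing mean under 10 scaled RPKM and 23 had at least 100. No member was an on and off unigene, since 0 of them were at 0 in any library.

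**Figure D1:**
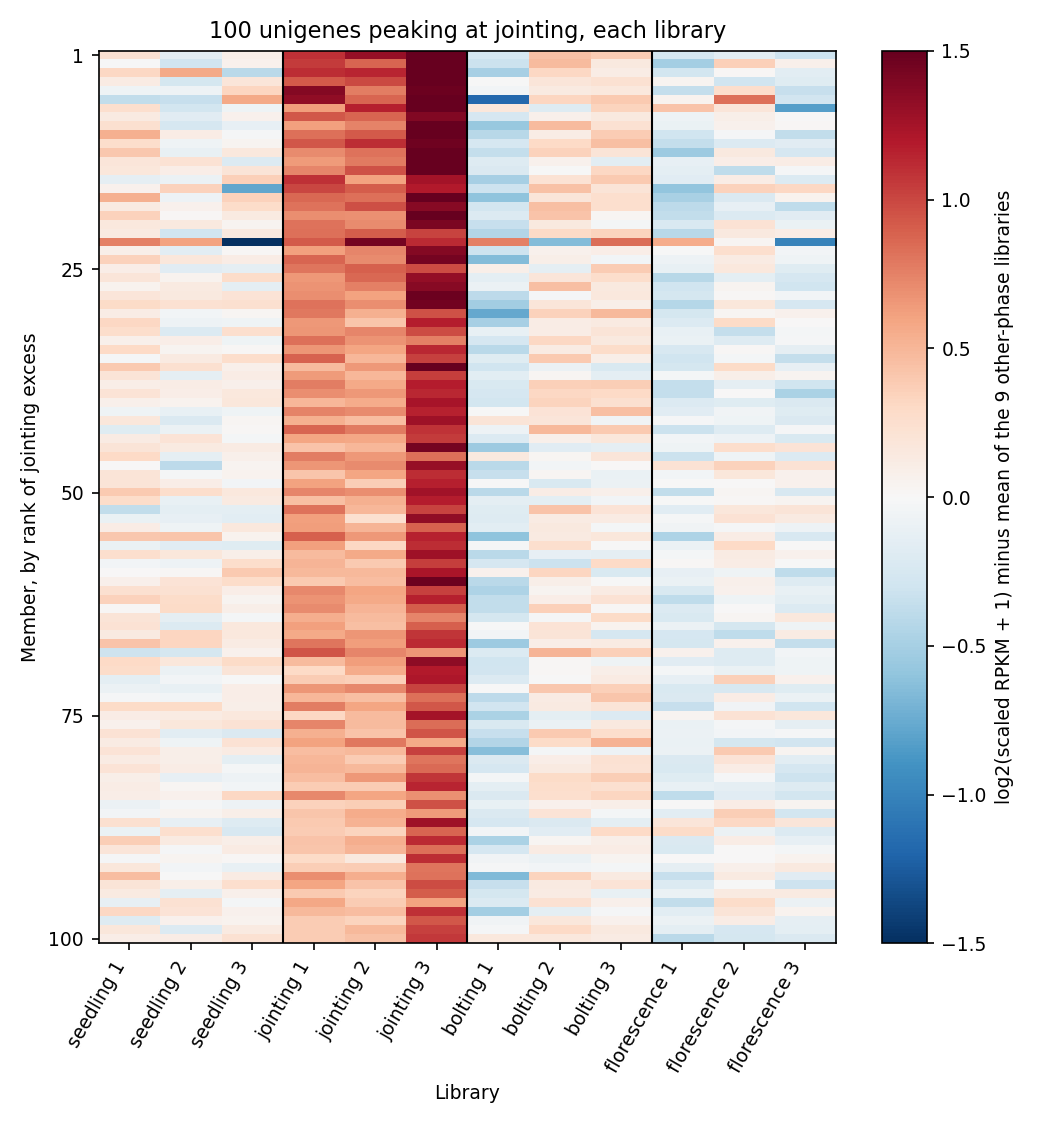
Heat map of the 100 members (down, by rank of jointing excess) in the 12 libraries (across, phases in order of growth). Colour gives log2(scaled RPKM + 1) minus the mean of the member's 9 libraries from other phases, and saturates at 1.5 in either direction; the jointing columns are red throughout, deepest in replicate 3, and bolting replicate 1 is mostly blue.

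The member with the largest excess was PB.60690.1. It had 128, 97.3 and 115 scaled RPKM in seedling replicates 1 to 3, 232, 269 and 409.6 in jointing leaves, 91.0, 148 and 141 in bolting leaves, and 90.2, 96.6 and 86.8 in florescence leaves. Its jointing libraries stood clear of all others, with replicate 3 far above its own phase mates. The phase means were 113 ± 15.2 in seedling leaves, 304 ± 93.6 in jointing leaves, 126 ± 30.9 in bolting leaves and 91.2 ± 4.96 in florescence leaves (SD, n = 3 each). The jointing mean was 2.40 times that of bolting, the next highest phase.

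PB.57179.2 had 13.2, 10.6 and 13.9 scaled RPKM in seedling leaves, 28.5, 25.1 and 56.5 in jointing leaves, 10.4, 18.7 and 14.7 in bolting leaves, and 9.02, 17.3 and 14 in florescence leaves. PB.61029.2 had 8.72, 10.6 and 4.93 scaled RPKM in seedling leaves, 15.8, 16.3 and 27.4 in jointing leaves, 4.53, 8.70 and 7.42 in bolting leaves, and 5.48, 6.93 and 6.01 in florescence leaves. In both, jointing replicates 1 and 2 were close together and replicate 3 was higher. Their excesses were 1.22 and 1.21.

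PB.7128.14 had 6.27, 4.54 and 6.58 scaled RPKM in seedling leaves, 11.7, 12.2 and 24.9 in jointing leaves, 5.63, 6.56 and 6.80 in bolting leaves, and 5.84, 4.42 and 4.89 in florescence leaves. Its lowest jointing library was 1.72 times the highest of the other 9, the widest gap among the members. PB.58777.1 had 21.6, 21.4 and 28.5 scaled RPKM in seedling leaves, 60.2, 39.2 and 64.6 in jointing leaves, 22.0, 24.9 and 25.4 in bolting leaves, and 17.5, 27.5 and 17.6 in florescence leaves. In this unigene jointing replicate 1 was nearly as high as replicate 3, and replicate 2 was the low one.

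PB.61595.1 had 2.93, 3.0 and 6.52 scaled RPKM in seedling leaves, 11.8, 8.29 and 16.0 in jointing leaves, 1.24, 5.32 and 5.65 in bolting leaves, and 4.24, 8.01 and 3.17 in florescence leaves. Here jointing replicate 2 was only just above florescence replicate 2, at 1.03 times its value. PB.61676.1 had 6.53, 4.19 and 5.03 scaled RPKM in seedling leaves, 8.72, 13.1 and 21.9 in jointing leaves, 6.10, 4.50 and 6.95 in bolting leaves, and 7.44, 6.16 and 2.54 in florescence leaves. Its jointing libraries spanned 2.51-fold, the widest span among the members. PB.59581.3 had 96.9, 78.5 and 92.0 scaled RPKM in seedling leaves, 169, 162 and 233 in jointing leaves, 73.6, 92.9 and 98.1 in bolting leaves, and 83.8, 93.6 and 88.1 in florescence leaves. The 3 other phases of this unigene were almost level, with means of 89.1 ± 9.56 in seedling leaves, 88.2 ± 12.9 in bolting leaves and 88.5 ± 4.92 in florescence leaves, against 188 ± 39.4 in jointing leaves (SD, n = 3 each).

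**Figure D2:**
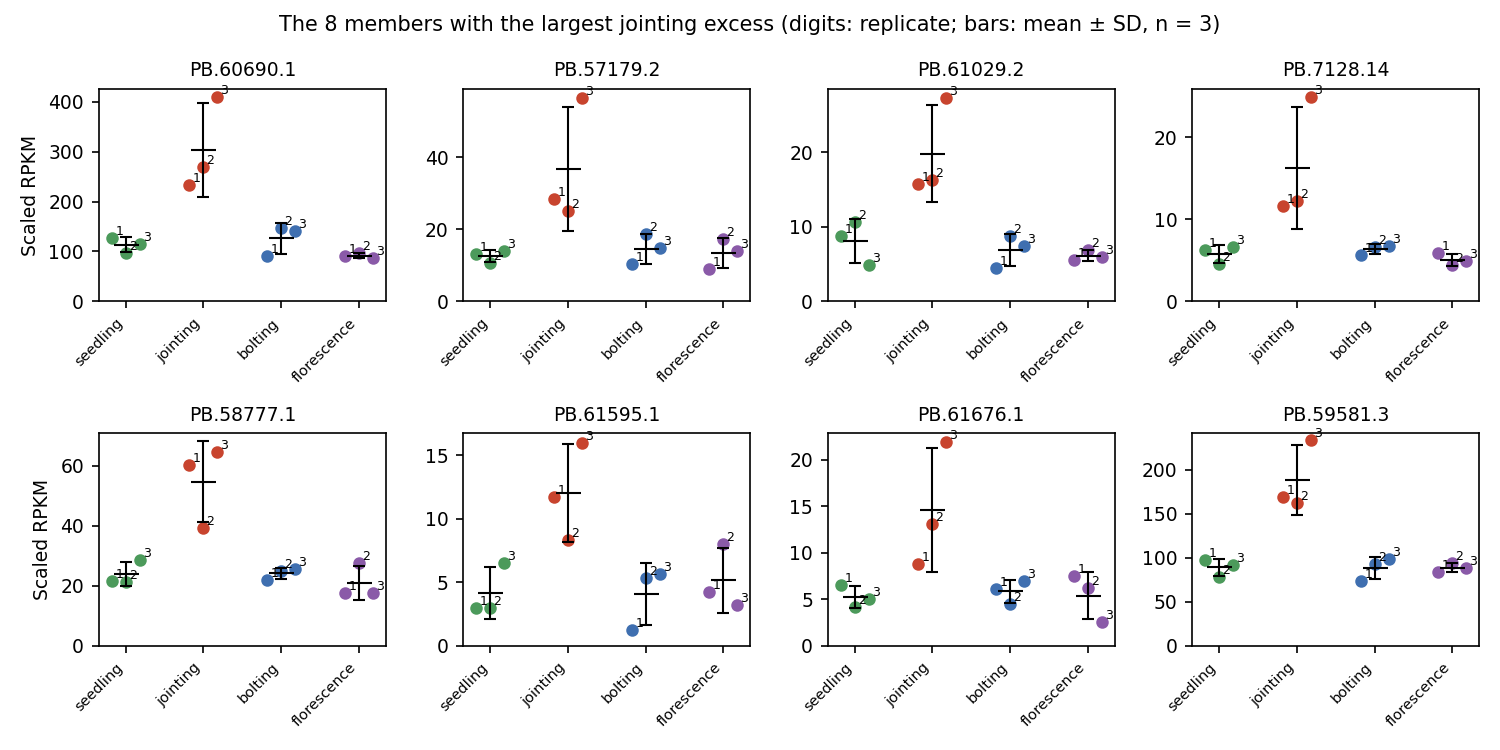
Scaled RPKM (vertical axes from 0) of the 8 members with the largest jointing excess, by phase. Points are libraries with their replicate digit, and bars give the mean ± SD (n = 3); jointing replicate 3 is the highest point in all 8 panels, for example 409.6 in PB.60690.1 and 24.9 in PB.7128.14.

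The 4 most abundant members had smaller excesses. PB.60532.1 had 806, 799 and 727 scaled RPKM in seedling leaves, 1119, 1026 and 1380 in jointing leaves, 493, 701 and 742 in bolting leaves, and 580.1, 713 and 628 in florescence leaves. With an excess of 0.59 it ranked 61. PB.57177.6 had 402, 371 and 380.2 scaled RPKM in seedling leaves, 485, 491 and 716 in jointing leaves, 225, 342 and 331 in bolting leaves, and 331, 459.8 and 361 in florescence leaves. Jointing replicates 1 and 2 of this unigene were only slightly above florescence replicate 2. PB.60231.2 averaged 369 ± 28.6 scaled RPKM in seedling leaves, 540.2 ± 64.5 in jointing leaves, 323 ± 56.2 in bolting leaves and 270.4 ± 30.9 in florescence leaves (SD, n = 3 each). PB.59655.1 averaged 312 ± 12.6 scaled RPKM in seedling leaves, 503 ± 97.8 in jointing leaves, 309 ± 63.6 in bolting leaves and 234 ± 42.6 in florescence leaves (SD, n = 3 each). In all 4 of these unigenes bolting replicate 1 was the lowest bolting library, at 493, 225, 258 and 235 scaled RPKM in the order named.

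The members differed in how evenly the jointing libraries shared the peak. The largest spreads among jointing libraries belonged to PB.16605.3, PB.59493.1 and PB.61676.1, with SDs of 0.678, 0.669 and 0.618 on the log2 scale (n = 3 each). PB.16605.3 had 16.5 and 18.2 scaled RPKM in jointing replicates 1 and 2 and 40.2 in replicate 3. Likewise PB.59493.1 had 22.8 and 24.6 scaled RPKM in replicates 1 and 2 and 54.1 in replicate 3. Its highest library outside jointing was seedling replicate 1 at 18.3 scaled RPKM.

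At the other end stood PB.51622.1, PB.28649.3 and PB.60361.1, whose jointing SDs were 0.0712, 0.0759 and 0.0878 on the log2 scale (n = 3 each). PB.51622.1 had 10.8, 10.6 and 12.7 scaled RPKM in seedling leaves, 17.3, 15.7 and 16.9 in jointing leaves, 8.57, 12.2 and 12.8 in bolting leaves, and 7.53, 8.85 and 8.16 in florescence leaves. PB.28649.3 had 4.65, 4.75 and 4.15 scaled RPKM in seedling leaves, 8.5, 7.55 and 8.05 in jointing leaves, 3.50, 5.67 and 4.93 in bolting leaves, and 4.01, 3.70 and 4.30 in florescence leaves. PB.60361.1 had 8.18, 5.81 and 6.90 scaled RPKM in seedling leaves, 11.7, 10.8 and 12.3 in jointing leaves, 7.30, 6.62 and 7.47 in bolting leaves, and 4.99, 6.15 and 5.5 in florescence leaves. In these 3 the jointing peak was shared by all 3 libraries, with excesses of 0.51, 0.68 and 0.63.

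PB.50620.2, singled out after its values were seen, had the largest SD of all members among seedling libraries, 1.49 on the log2 scale (n = 3). It had 10.3, 9.08 and 0.780 scaled RPKM in seedling leaves, 11.6, 17.0 and 13.4 in jointing leaves, 10.3, 3.23 and 10.9 in bolting leaves, and 8.81, 5.76 and 2.33 in florescence leaves. Its phase means passed the rule although single libraries differed several-fold within a phase.

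The edge of the list was not marked by a gap. The last members inside were PB.37132.3 and PB.52267.1, with excesses of 0.485 and 0.484. PB.37132.3 averaged 11.6 ± 3.18 scaled RPKM in jointing leaves against 7.85 ± 0.992 in bolting leaves, and PB.52267.1 averaged 38.2 ± 10.8 in jointing leaves against 26.4 ± 0.484 in bolting leaves (SD, n = 3 each). The first outside were PB.57448.5 and PB.48537.1, with excesses of 0.478 and 0.477. PB.57448.5 averaged 384 ± 92.6 scaled RPKM in jointing leaves against 271 ± 27.8 in seedling leaves, and PB.48537.1 averaged 25.2 ± 1.79 in jointing leaves against 17.8 ± 0.482 in bolting leaves (SD, n = 3 each).

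The gap between jointing and the rest was narrow for many members. The lowest jointing library was 1.0 to 1.72 times the highest other library, with a median of 1.17. This ratio was under 1.1 for 29 members and at least 1.5 for 3. The highest library outside jointing was a seedling library for 42 members (replicate 1 for 27 of them), a bolting library for 41 (replicate 1 for 1) and a florescence library for 17 (replicate 2 for 14).

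Jointing replicate 3 carried much of the peak. It was the highest jointing library in 95 of 100 members, against 3 for replicate 1 and 2 for replicate 2. Among all 347 unigenes that passed the rule it was the highest in 286, and among the 14941 unigenes of the mean range in 40.0%. It was the lowest jointing library in 44.6% of the mean range and in 2 members, so over the mean range it was often outlying in either direction. Its log2 value exceeded the mean of its 2 phase mates by a median of 0.55 over the members, against -0.02 over the mean range. Read against the highest other phase mean, replicate 3 alone gave a median excess of 0.99 over the members, replicate 1 alone 0.53 and replicate 2 alone 0.43. An excess of at least 1 was reached by 49 members in replicate 3, by 3 in replicate 1 and by 3 in replicate 2. In the lists for the other phases the library most often highest led in 55 of 100 unigenes for seedling (replicate 2), 51 for bolting (replicate 1) and 41 for florescence (replicate 2).

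Bolting libraries were also uneven. The rule named no order among them, but it kept each below every jointing library and ranked on a mean that holds jointing replicate 3. The member counts below are therefore not independent of the rule, and the mean range beside them was not chosen in this way. Bolting replicate 1 was the lowest bolting library in 86 of 100 members, against 36.5% of the unigenes in the mean range. It was the highest in 4 members and in 44.0% of the mean range. Its median difference from its 2 phase mates was -0.39 over the members and 0.03 over the mean range. Jointing replicate 3 was above its mates while bolting replicate 1 was below its own in 90 of 100 members, against 29.8% of the mean range. Over the 14941 unigenes the deviations of these 2 libraries, which share no phase mate, had a Pearson correlation of -0.56 (Spearman -0.50), and over the members 0.03. These correlations are across unigenes, which are not independent replicates, and the libraries share the division by median of ratios. In seedling leaves, replicate 1 was above its mates in 73 members against 40.0% of the mean range, and in florescence leaves replicate 2 was above in 83 against 64.6%. Those shifts were smaller, with medians of 0.12 and 0.18 over the members.

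**Figure D3:**
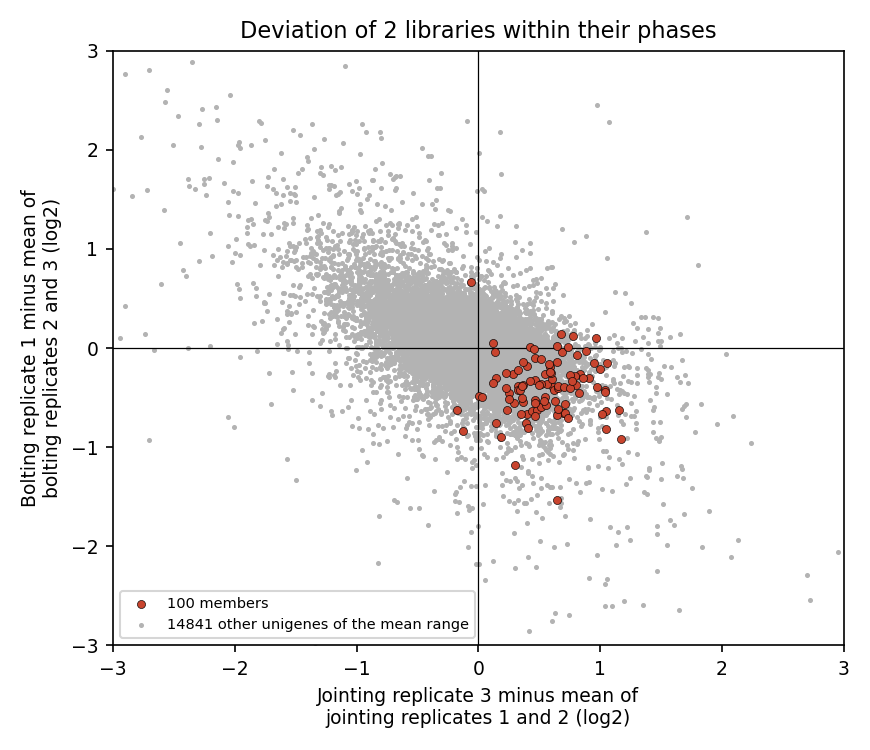
Deviation of jointing replicate 3 from its phase mates (horizontal, log2) against that of bolting replicate 1 from its own (vertical, log2), for the 100 members (red) and 14841 other unigenes of the mean range (grey); 38 grey points lie outside the axes. Most members sit at the lower right, and 90 of 100 are above 0 on the horizontal and below 0 on the vertical axis.

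**Figure D4:**
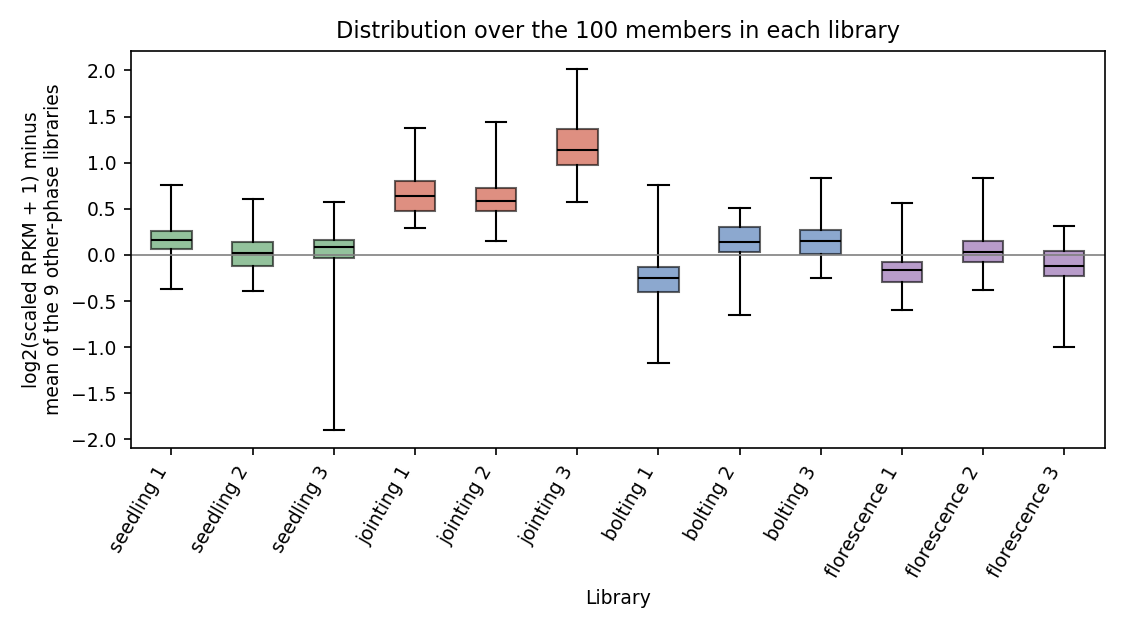
Box plots over the 100 members in each library of log2(scaled RPKM + 1) minus the mean of the 9 libraries from other phases. Boxes span the quartiles, lines are medians and whiskers reach the lowest and highest member; jointing replicate 3 is the highest box and bolting replicate 1 the lowest.

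The excess was also read with these libraries set aside. The rule asked each jointing library to lie above the other 9, so an excess above 0 without them was fixed by the choice of members, and only its size is described. From jointing replicates 1 and 2 alone, without rescaling, the excess over the members ran from 0.20 to 1.01 with a median of 0.47, and it was at least 0.5 in 42 and at least 1 in 1. After rescaling, the median excess was 0.62 with all libraries, 0.47 without jointing replicate 3, 0.58 without bolting replicate 1 and 0.40 without both.

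Each jointing library was also read in unigenes chosen without it. The rule was run without 1 jointing library, the first 100 unigenes were taken, and the library left out was then read in them. The 9 libraries of the other phases took part in each choice, so these counts are not independent of the rule, and the mean range beside them was not chosen for low values in those 9. Jointing replicate 1 was above all 9 libraries of the other phases in 85 of the 100 unigenes chosen without it, against 9.56% of the mean range. For replicate 2 the count was 84 of 100 against 8.7%, and for replicate 3 it was 92 of 100 against 19.8%. The excess of the library left out over the highest other phase mean had a median of 0.49 for replicate 1, 0.40 for replicate 2 and 0.82 for replicate 3, against -0.29, -0.31 and -0.32 over the mean range. These lists shared 83, 80 and 70 unigenes with the 100 members. Over all unigenes that passed without the library, not only the first 100, it was above the 9 others in 339 of 630 for replicate 1, 342 of 523 for replicate 2 and 331 of 395 for replicate 3.

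**Figure D5:**
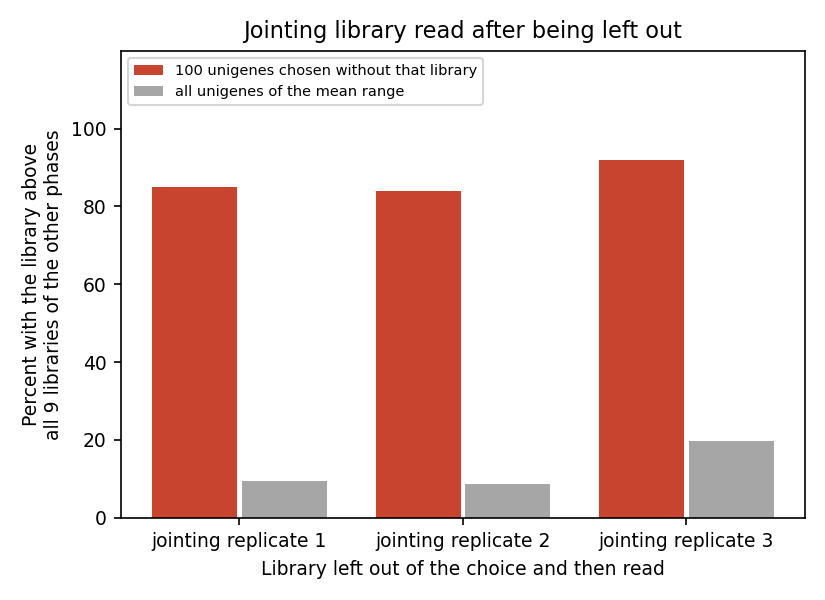
Percent of unigenes in which a jointing library lay above all 9 libraries of the other phases, for 100 unigenes chosen without that library (red) and for all unigenes of the mean range (grey), which were not chosen for low values in those 9. The red bars stand at 85, 84 and 92 and the grey bars at 9.56, 8.7 and 19.8.

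Each pair of phases was then compared across all 31242 unigenes with a deposited mean of at least 1 RPKM, with limma on log2(scaled RPKM + 1). All 100 members were tested. Calls needed a difference of 1 or more, that is 2-fold, with an adjusted p (Benjamini-Hochberg) under 0.05. Because the rule used the jointing contrasts, the counts of members in them are a description. In jointing against seedling 12 of 100 members were called higher and 0 lower, beside 1.15% higher and 3.8% lower among all tested unigenes. In jointing against bolting 18 members were called higher and 0 lower, beside 1.1% and 0.845%. In jointing against florescence 33 members were called higher and 0 lower, beside 5.3% and 4.34%. The median difference of the members was 0.67 from seedling, 0.79 from bolting and 0.88 from florescence, and that of all tested unigenes was between -0.02 and 0.00.

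Most of the members not called missed the 2-fold demand. At an adjusted p under 0.05 in limma with no demand on the size, 75 members were higher in jointing leaves than in seedling leaves, 71 than in bolting leaves and 92 than in florescence leaves, beside 6.75%, 3.53% and 17.4% of all tested unigenes. The calls rested on few libraries. Without jointing replicate 3 the members called were 4 against seedling, 1 against bolting and 11 against florescence. Of all tested unigenes 167, 142 and 1602 were called higher there. Without bolting replicate 1 only 22 of 31467 tested unigenes were called between jointing and bolting in limma, and 0 of them were members. At an unadjusted p under 0.05 in that limma fit there were 91 members, beside 6436 of all tested unigenes. Of these members 8 differed by at least 1. Without jointing replicate 1 the member counts were 21 against seedling, 33 against bolting and 42 against florescence. Beside them 434, 444 and 1620 of all tested unigenes were called higher. Without jointing replicate 2 the member counts were 24, 30 and 42, beside 465, 404 and 1684 of all tested unigenes. With values as deposited 74 members were called against seedling and 72 against bolting, while the count against florescence was 33, as with scaled values. Of all tested unigenes 1247, 938 and 1747 were then called higher. A fit on the 6 libraries of jointing and bolting called 0 of all 31242 tested unigenes in limma, and so 0 members. At an unadjusted p under 0.05 in that limma fit there were 94 members, beside 6969 of all tested unigenes.

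Among the other phases the members were held together by the rule, so small differences there were fixed in advance. Their means of the other 3 phases lay 0.02 to 0.50 apart on the log2 scale, with a median of 0.29. The jointing excess had a median of 0.62 and a minimum of 0.48, so the other phases were not level beside it in every member. None of the 3 comparisons among seedling, bolting and florescence called a member in limma, higher or lower. The shares of all tested unigenes called higher were 0.547% for bolting against seedling, 2.06% for florescence against seedling and 2.23% for florescence against bolting, and the shares called lower were 1.05%, 5.61% and 4.46%. At an unadjusted p under 0.05 in limma there were 2, 10 and 10 members in these comparisons. The number of all tested unigenes at that unadjusted limit was not counted. At an adjusted p under 0.05 in limma with no demand on the size there were 0, 2 and 2 members. Beside them stood 1675, 9627 and 8714 of all tested unigenes. The median difference of the members was -0.04 for bolting against seedling, -0.16 for florescence against seedling and -0.10 for florescence against bolting. The florescence mean was the lowest of the 3 phases in 61 members, bolting in 26 and seedling in 13. Seedling was the highest of the 3 in 55, bolting in 34 and florescence in 11.

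Spread of the members within a phase was also larger in jointing leaves. They were ranked on an excess that a high jointing replicate 3 raises, so this spread is not independent of the choice. Over the mean range the deviation of that library from its mates had quartiles of -0.32 and 0.23, the widest of the 12 libraries. The median SD of a member's log2 values was 0.142 in seedling leaves, 0.327 in jointing leaves, 0.263 in bolting leaves and 0.150 in florescence leaves (n = 3 each). In 60 members the jointing SD was larger than that of each other phase. The members together held 0.788%, 0.794% and 1.41% of the summed scaled RPKM in jointing replicates 1 to 3. In the other 9 libraries their share lay between 0.282%, in bolting replicate 1, and 0.590%, in florescence replicate 2. A share of a library's own total does not depend on its size factor, so these shares are not on the scaled basis used elsewhere. On that basis the members' summed scaled RPKM were 8092, 7786 and 11478 in jointing replicates 1 to 3. In the other 9 libraries the sums lay between 3927, in bolting replicate 1, and 5908, in seedling replicate 1.

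Identifiers gave a further feature that the rule did not use. Every unigene had its own PB number, so no 2 members came from 1 numbered cluster. The members' PB numbers ran from 1255 to 61676 with a median of 54196, against 42651 in the mean range. A number above 50000 was held by 61 of 100 members and by 35.6% of the mean range. The last number of the identifier was above 1 in 51 members, against 59.7% of the mean range. PB numbers went with the size of the smallest values: where a unigene was at 0 in 5 or more libraries, its lowest value above 0 had a median of 0.195 RPKM for numbers above 60000 (n = 312) and 0.02 RPKM for numbers up to 10000 (n = 1182). A single read is worth more RPKM in a shorter unigene, and the lengths of the members were not analysed here. In the mean range the deviation of jointing replicate 3 from its mates had a median of 0.01 for numbers up to 10000 and -0.01 from there to 50000. It was -0.06 from there to 60000 and -0.11 above 60000. The bins held 2210, 7414, 4577 and 740 unigenes, of which 5, 34, 44 and 17 were members, a share that rose with the PB number. The jointing excess had medians of -0.31, -0.30, -0.33 and -0.24 in these bins, with no steady order.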

How the data were processed

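Leaf RNA was sequenced (Illumina, paired ends) in 12 libraries, which were assigned to 4 phases from their titles. The authors mapped cleaned reads with HISAT2 2.05 to unigenes built from pooled PacBio reads, estimated expression with RSEM and deposited RPKM with 2 decimals; the methods text names FPKM, and no normalization between libraries is stated. RSEM divides reads between near-identical sequences, so single unigenes with close relatives are uncertain. No per-sample column was left unmatched. Size factors were medians of ratios over the 43618 unigenes above 0 in all 12 libraries, the scaling of the count test named by the study, which itself was not applied because the table holds no counts. Relative depth, estimated from the lowest values of 106 rarely detected unigenes, was 0.969 to 1.02 of the mean, a rough figure that values with 2 decimals resolve poorly. The clean bases that the study lists for these libraries differ more than this estimate and were not used here.

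All 12 libraries entered 1 fit of limma 3.58.1 (R 4.3.3) with a mean-variance trend, phase as the only factor and a pseudocount of 1; differences on log2(value + 1) understate the change of low unigenes. The fit was tested on simulated data. Other steps used Python 3.11.15 with pandas 2.3.3. The p-values weigh a phase difference against the spread between samples within phases, pooled over the 4 phases and moderated across unigenes. Unigenes were named by rule: the 8 largest excesses, the 4 highest jointing means, the 3 largest and 3 smallest jointing SDs, and the 2 last inside and 2 first outside the list. The rule's parts on shared PB numbers and on members called between other phases found none. The members and lists were chosen with earlier results of these data known. Same-numbered libraries were checked for pairing by correlating their deviations from the phase means; all 3 pairs of florescence and seedling were above 0.1, a hint from the data, since the labels name no shared plants or batch.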

Additional observations from a re-analysis of the deposited data

How the results depend on the processing

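Membership depended on the scaling. With values as deposited 1346 unigenes passed the rule and 43 of its first 100 were members, and with equal totals 1016 passed and 29 were members. The number passing was 168 with the other phases within 0.25 and 874 with a mean of at least 1 RPKM, with 44 and 46 members shared; with the other phases within 1, 61 were shared. With a library left out 348 to 630 passed (523 without jointing replicate 2, 630 without jointing replicate 1) and 70 to 91 members were shared. Members called higher at jointing against seedling, bolting and florescence numbered 12, 18 and 33. As deposited the first 2 of these counts were 74 and 72, with quantile normalization 39 and 38, and with equal totals the 3 counts were 84, 78 and 21. Called higher among all tested unigenes were 360, 344 and 1656 with median of ratios. As deposited 1247 and 938 were, with quantile normalization 471 and 423, and with equal totals 1442, 1156 and 1554. Pseudocount 0.1 gave 20 members against seedling, beside 545 of all tested unigenes. With no fold threshold the member counts were 75, 71 and 92, beside 2110, 1102 and 5431 of all tested unigenes. Lower at florescence than at seedling and at bolting were 2 members each, beside 5492 and 4689. At an adjusted p under 0.01 in limma there were 6 members against seedling, beside 162 of all tested unigenes called higher. Against bolting there were 0 members, beside 2 of all tested unigenes. In that comparison 99 members had an unadjusted p under 0.05 in limma, beside 9024 of 31242 unigenes. The fit on the 6 libraries of jointing and bolting called 0 of all 31242 tested unigenes in limma, and so 0 members. At an unadjusted p under 0.05 that limma fit had 94 members, beside 6969. With a library left out the counts ran from 4 to 24 against seedling, 0 to 33 against bolting and 11 to 42 against florescence. All tested unigenes called higher at these ends were 167 and 465, 11 and 444, and 1602 and 1620 or 1684. The 3 comparisons among the other phases stayed at 0, all but fixed by the rule. Unless stated, the cause was not tested. The settings without both jointing replicate 3 and bolting replicate 1, and the reading of left-out libraries, were chosen after seeing the data.

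With the replicate block the jointing counts were 13, 18 and 33, beside 336, 330 and 1661 of all tested unigenes called higher. None of these changed by over 1.5 times. The other 3 stayed at 0, again all but fixed by the rule. Deviations of same-numbered libraries from the phase means correlated above 0.1 in all 3 pairs of florescence and seedling (0.37, 0.25 and 0.28). They did so in 2 of 3 pairs of florescence and bolting (0.43, 0.46 and 0.08), in 2 of 3 of bolting and seedling, and in 0 of the 9 pairs with a jointing library. Those 9 ran from -0.63 to 0.09. The labels do not say whether same-numbered libraries share more than a number. The planned counts of other unigenes with a member's PB number could not be made, because each number occurs once. Of 285 alternative values of the 19 named members' excess, 271 moved by less than the SD among jointing libraries, 14 by more, and 0 changed sign. Most of these settings left out 1 library. The rule placed every jointing library above the other 9, so the sign was all but fixed there by the choice of members. With no read numbers, low values have no counting error here.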
